A study of Mus musculus with 8 samples.

Results

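Elf5, Kit, Ehf, Elf3, Sox9, Sox10, Cd14, Cebpb, Hey1 and Stat5a are regulators and markers of mammary luminal progenitors. They were taken by their annotated symbols from the deposited array values, and all 10 were measured on every array, among 21794 genes in all. Ehf was read by 2 probes and each of the other genes by 1, which makes 11 probes. Mammary cells of virgin wild type FVB/N-J mice were sorted by surface markers into fractions named MaSC, enriched for mammary stem cells, and LP, enriched for luminal progenitors. Each fraction was represented by 2 control samples and 2 samples treated with IFNα at 1000 U/ml, so 8 arrays stood in 4 groups. All samples went through mammosphere culture, a suspension culture of epithelial spheres, and were harvested after 8 days. The labels do not state whether sorting came before or after the culture, and MaSC and LP titles carry an identical surface phenotype, so the subpopulation label set the groups. Nothing says that replicates are different mice or cultures, and the p-values below reflect a between-sample spread that may be technical.

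Luminal progenitors are the cells of the mammary duct and alveolus that give rise to the secretory luminal lineage. ELF5 and EHF are ETS-family transcription factors of epithelial cells, and ELF5 drives the alveolar fate downstream of prolactin and STAT5A. KIT is a receptor tyrosine kinase used to isolate these progenitors. Stem-cell-enriched fractions are instead known for basal genes such as Krt5, Krt14 and Trp63, so the comparison asks whether the LP genes separate the cultured fractions as the basal genes do.

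Values are log2 ratios of the sample to a common reference RNA mixed from 11 mouse cell lines, so that 0 means as much signal as in the reference. Ratios of different genes rest on different reference levels and were not set against each other. LP control replicate 1 stood apart: the SD of its log ratios over all probes was 0.63, against 1.19 to 1.26 on the other arrays. Over all probes its ratios therefore lay closer to 0, but not for every LP gene: Cd14 and Elf3 were highest on it. The values it moves most are given with and without it. Without it the single LP control array is assumed to vary like the other groups.

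The promoters of Elf5 and Kit are shown because these genes stood high above the reference in both fractions and moved together over the arrays. Each run holds 250 bases before and 50 after a RefSeq transcript start (build GRCm38.p6), on the plus strand of chr2:103411848-103412147 for Elf5 and of chr5:75574737-75575036 for Kit. Capitals mark matches to GGAAG, a form of ETS site, and to TTGCNNAA, a C/EBP site, searched on both strands.
Elf5: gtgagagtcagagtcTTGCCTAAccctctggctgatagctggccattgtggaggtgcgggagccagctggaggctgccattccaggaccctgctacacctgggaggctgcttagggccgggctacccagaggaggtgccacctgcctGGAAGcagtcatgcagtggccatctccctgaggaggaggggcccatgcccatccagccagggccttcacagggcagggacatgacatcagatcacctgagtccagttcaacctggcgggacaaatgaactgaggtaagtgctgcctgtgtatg
Kit: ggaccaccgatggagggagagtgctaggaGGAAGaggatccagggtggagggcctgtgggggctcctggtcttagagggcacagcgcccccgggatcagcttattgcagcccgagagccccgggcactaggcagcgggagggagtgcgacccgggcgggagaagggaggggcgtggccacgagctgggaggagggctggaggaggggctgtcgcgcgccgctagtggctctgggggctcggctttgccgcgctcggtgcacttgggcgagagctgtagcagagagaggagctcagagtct
The Elf5 window shown held 1 match to each motif, which do not overlap, and the Kit window shown held 1 match to GGAAG. RefSeq gives 2 windows for each gene: the other Elf5 window, chr2:103423818-103424117, held 1 match to TTGCNNAA and none to GGAAG, and the other Kit window overlaps the one shown. GGAAG occurred in 71.4% of 32851 promoter windows of this length and TTGCNNAA in 10.8%, so these matches are a description only. None of these windows held TTCNNNGAA, a STAT site (8.3% of windows), AACAAT, a SOX site (10.7%), CACGTG, an E-box of HES and HEY factors (7.15%), or GAAANNGAA, an interferon regulatory factor site (8.56%). Among the LP genes RefSeq windows were matched for Elf5, Kit, Elf3, Cebpb and Stat5a. Elf5 and Ehf lie next to each other on chromosome 2 with only 2 long non-coding RNA genes, A930006I01Rik and BC016548, between them.

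Elf5, Kit and Ehf were well above the reference in both fractions, Cd14 was higher in LP on every array, and no LP gene passed the test between the fractions. With MaSC compared with LP over both treatments, 0 of the 10 genes passed an adjusted p of 0.05 (limma, Benjamini-Hochberg over all genes), while 3.69% of all genes passed, 511 higher and 293 lower in MaSC. The median difference of the 10 genes was 0.06 on the log2 scale (0.12 without LP control replicate 1), beside -0.02 over all genes. With the arrays scaled to the same SD it was -0.44, beside -0.11 over all genes. With quantile normalization it was -0.26, beside -0.03. At an unadjusted p under 0.05 stood 5047 of all 21794 genes. Of the 10, 2 stood there: Cd14, which was higher in LP, and Cebpb, which was higher in MaSC. These were also the 2 whose 4 MaSC arrays did not overlap the 4 LP arrays, a pattern that 18% of all genes shared. In controls alone 0 of 10 passed, against 0.601% of all genes, and with IFNα 0 of 10, against 0.505%. At an unadjusted p under 0.05 the counts were 2 in controls, Cebpb and Cd14, and 1 with IFNα, Cd14. Beside them stood 3013 of all 21794 genes in controls and 3683 with IFNα.

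**Figure D1:**
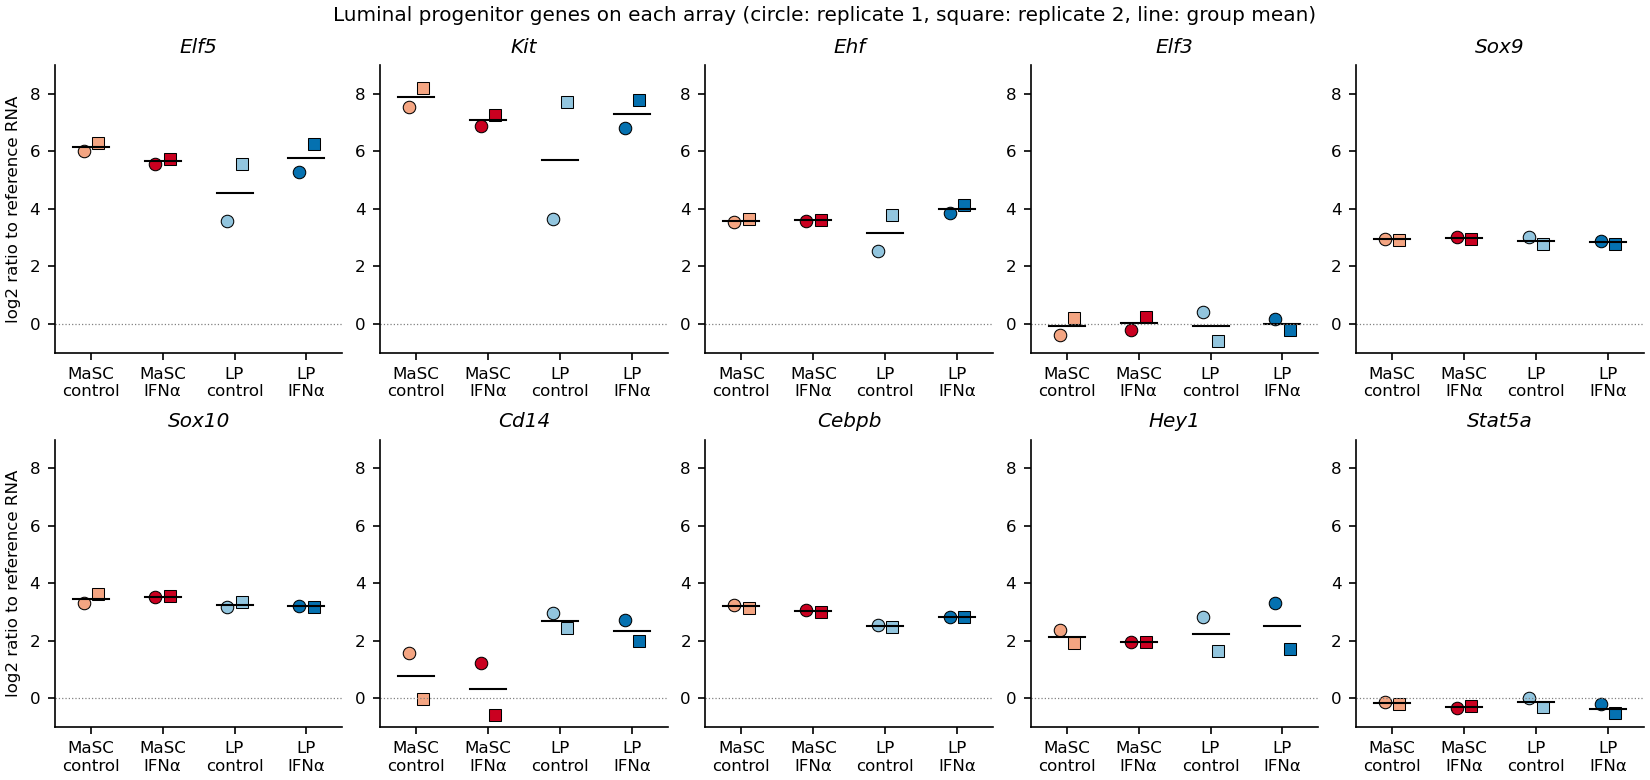
Log2 ratio to the reference RNA (y axis) of each LP gene on each of the 8 arrays, by group (x axis); circles are replicate 1, squares replicate 2, and the line is the group mean. Elf5 and Kit lie between 3.58 and 8.21 on every array, and their lowest point is LP control replicate 1.

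Elf5, the ETS factor of the alveolar fate, stood far above the reference in both fractions. Its log2 ratio was 6.03 and 6.28 in MaSC controls, 5.58 and 5.72 in MaSC with IFNα, 3.58 and 5.56 in LP controls, and 5.29 and 6.25 in LP with IFNα. Only LP control replicate 1 fell below 5, and the fractions overlapped. Group means were 71.2-fold the reference in MaSC controls, 54.6-fold in LP with IFNα, 50.2-fold in MaSC with IFNα and 23.7-fold in LP controls. The LP control mean rests on LP control replicate 1, and LP control replicate 2 alone stood at 47.2-fold. This is an order of means, and not every pair of neighbours in it was tested. MaSC exceeded LP by 0.73 ± 0.47 (SE, n = 4 and 4; limma adjusted p = 0.41), with a 95% interval from -0.41 to 1.88. Without LP control replicate 1 the difference was 0.24. In controls it was 1.59 ± 0.66 (limma adjusted p = 0.37), or 0.59 without that array, and with IFNα it was -0.12 ± 0.66 (limma adjusted p = 0.98).

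Kit, which encodes the receptor for stem cell factor, showed the same picture with a wider range. MaSC controls read 7.56 and 8.21, MaSC with IFNα 6.88 and 7.28, LP controls 3.66 and 7.72, and LP with IFNα 6.82 and 7.80. Over all 8 arrays the values spanned 4.55, and over the 7 without LP control replicate 1 they spanned 1.40. Every group mean was at least 51.8-fold the reference, and the highest was 237-fold, in MaSC controls. The lowest mean, that of LP controls, rests on LP control replicate 1, and LP control replicate 2 alone stood at 211-fold. MaSC exceeded LP by 0.98 ± 0.88 (SE; limma adjusted p = 0.55), with a 95% interval from -1.16 to 3.13, and without LP control replicate 1 the difference was -0.03. Which LP control array was kept decided the call: without LP control replicate 2 the difference was 2.00 and passed (limma adjusted p = 0.04997). In controls the difference was 2.19 ± 1.24 (limma adjusted p = 0.47), 0.17 without LP control replicate 1 and 4.22 without LP control replicate 2, where it passed (limma adjusted p = 0.038). With IFNα it was -0.23 ± 1.24 (limma adjusted p = 0.98).

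Mast cells and melanocytes also express Kit. The mean log2 ratio of 9 mast cell genes lay between 0.26 and 0.54 on MaSC arrays and between -0.42 and -0.10 on LP arrays, and 0 of the 9 passed between fractions. That of 8 melanocyte and glial genes lay between 0.33 and 0.66 on MaSC arrays and between -0.12 and 0.30 on LP arrays, and 1 of the 8, Mitf, rose in MaSC (1.31 ± 0.17 SE, limma adjusted p = 0.021). The part of such cells in the Kit values was not tested. In bulk RNA, fewer cells of a type and less RNA per cell cannot be told apart.

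Elf5 and Kit varied together, with a Pearson r of 0.97 over the 8 arrays and 0.82 over the 7 without LP control replicate 1. Ehf correlated with them at 0.85 and 0.88 over 8 arrays, and at 0.10 and 0.14 over 7. These are descriptions: the arrays share groups and the reference, and the low array weighs on every pair. The genes with patterns most like Elf5 were Slc29a4 (r = 0.98, and 0.90 over 7 arrays), Tceal6 (0.98 and 0.93) and Arg1 (0.97 and 0.82). Those most like Kit were Large2 (0.99 and 0.93), Fjx1 (0.99 and 0.87) and Mal2 (0.97 and 0.66).

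Ehf, an ETS factor of differentiating epithelium, gave similar MaSC values on every array and more scattered LP values. As the mean of its probes it lay between 3.54 and 3.65 on the 4 MaSC arrays and read 2.54 and 3.80 in LP controls and 3.87 and 4.13 in LP with IFNα. The fractions overlapped only through LP control replicate 1. Without it all 3 LP arrays lay above all MaSC arrays, and the difference turned from 0.01 ± 0.29 (SE; limma adjusted p = 0.99) to -0.30 (limma adjusted p = 0.32). With that array left out, 4 of the 10 genes (Ehf, Sox9, Cd14 and Cebpb) no longer overlapped between fractions, beside 25.1% of all genes. The Ehf probes differed in spread: A_55_P2070809 ran from 1.70 to 3.95 and A_66_P109519 from 3.39 to 4.31, with MaSC minus LP differences of -0.06 and 0.08. The closest patterns were those of Dpp8, Eps8l2 and Cd44, each at r = 0.99.

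Elf3, another epithelial ETS factor, sat at the level of the reference. Its values were -0.38 and 0.21 in MaSC controls, -0.20 and 0.24 in MaSC with IFNα, 0.41 and -0.60 in LP controls, and 0.17 and -0.20 in LP with IFNα. All groups overlapped, and the difference between fractions was 0.02 ± 0.29 (SE; limma adjusted p = 0.97), or 0.28 without LP control replicate 1. Mtln, Themis and Zcchc3 had the most similar patterns, with r of 0.98, 0.98 and 0.93.

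Of 14 other ETS factors 1 rose and 1 fell in MaSC relative to LP. Fli1, an endothelial and blood factor, was 3.52 ± 0.53 (SE) higher in MaSC (limma adjusted p = 0.030), and Ets2 was 1.05 lower (limma adjusted p = 0.034). Their list's median difference was 0.03, and -0.02 without LP control replicate 1. Ets2 did not pass without that array or with the arrays scaled to the same SD. Most endothelial genes were also higher in MaSC: 7 of 8 had a difference above 0 and 5 passed, Cdh5, Emcn, Tek, Tie1 and Kdr. Pecam1, of the same list, differed by -0.08 and lay below the reference on every array. The part of endothelial genes in the Fli1 difference was not tested. Among fibroblast genes 2 of 5 rose in MaSC, but 0 with the arrays scaled to the same SD, and among adipocyte genes 2 of 5.

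Sox9 and Sox10, SOX factors linked to mammary progenitor states, were close to level across all groups. Sox9 read 2.96 and 2.91 in MaSC controls, 3.03 and 2.94 in MaSC with IFNα, 3.01 and 2.79 in LP controls, and 2.89 and 2.78 in LP with IFNα. It spanned only 0.26 over the 8 arrays, with group means from 7.13-fold to 7.92-fold the reference. The difference between fractions was 0.09 ± 0.12 (SE; limma adjusted p = 0.70), with a 95% interval from -0.21 to 0.40. Sox9 without LP control replicate 1 also separated the fractions, MaSC above LP, at 0.15 and with no call (limma adjusted p = 0.60).

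Sox10 read 3.29 and 3.63 in MaSC controls, 3.50 and 3.55 in MaSC with IFNα, 3.17 and 3.33 in LP controls, and 3.20 and 3.17 in LP with IFNα. MaSC arrays lay mostly above LP arrays, and 1 LP control array reached the lowest MaSC array. The difference was 0.27 ± 0.14 (SE; limma adjusted p = 0.29), with a 95% interval from -0.06 to 0.61. Over the 8 arrays Sox10 ran against Cd14, at r = -0.89, and at -0.86 over 7 arrays. Akap6, Orm1 and Olfr187 were most like Sox10 (r of 0.99, 0.99 and 0.98), and Gnb4, Gng2 and Traf5 most like Sox9 (0.97, 0.96 and 0.96).

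Of 13 other SOX factors 2 rose in MaSC and none fell, with a list median of 0.75. They were Sox17 (3.42 ± 0.43 SE, limma adjusted p = 0.019) and Sox18 (3.34 ± 0.33, limma adjusted p = 0.0097), which are known from endothelium. Both counts were the same without LP control replicate 1.

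Cd14, the lipopolysaccharide co-receptor and a surface marker of luminal progenitors, was higher on all 4 LP arrays. It read 1.58 and -0.04 in MaSC controls, 1.20 and -0.60 in MaSC with IFNα, 2.97 and 2.43 in LP controls, and 2.70 and 1.99 in LP with IFNα. The lowest LP array was 0.40 above the highest MaSC array. Replicate 1 exceeded replicate 2 in all 4 groups, by 1.62 and 1.81 in MaSC controls and MaSC with IFNα and by 0.54 and 0.72 in the LP groups. Group means were 6.49-fold the reference in LP controls, 5.08-fold in LP with IFNα, 1.70-fold in MaSC controls and 1.23-fold in MaSC with IFNα.

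Cd14 was 3.96-fold lower in MaSC over both treatments, a log2 difference of -1.99 ± 0.54 (SE; 95% interval -3.31 to -0.66). This missed the threshold (unadjusted p = 0.011, limma adjusted p = 0.10), and the value without LP control replicate 1 was -1.85 (limma adjusted p = 0.19). In controls the difference was -1.93 ± 0.77 (limma adjusted p = 0.35) and with IFNα -2.04 ± 0.77 (limma adjusted p = 0.26). The sign was the same in all 17 alternatives, from -2.56 to -1.53. Among these, the Cd14 difference passed in the fit with a replicate block (limma adjusted p = 0.035). Zkscan17, Mcrip1 and Pkp2 had the patterns most like Cd14, with r of 0.996, 0.995 and 0.992.

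Macrophages and monocytes also express Cd14. The mean of 12 leukocyte and macrophage genes lay between -2.58 and -2.30 on 7 arrays and was -0.68 on LP control replicate 1, and 0 of 12 passed between fractions. Ptprc, the pan-leukocyte marker, ran from -2.83 to -0.77, and Tyrobp, a myeloid adaptor, from -5.56 to -1.26, both highest on that array. The spread of that array was narrow over all probes (SD 0.63). Ifit1, an interferon-induced gene, read -1.09 on it and -4.83 on LP control replicate 2. Of the leukocyte list, Itgam alone was not higher on LP control replicate 1 than on replicate 2, at 0.27 and 0.34. The parts of the narrow spread and of leukocytes in these values were not tested. Without LP control replicate 1 the Cd14 difference was -1.85, as given above. The part of such cells in the Cd14 values was not tested. Around Cd14, 0 of 11 genes of the TLR4 pathway passed, 1 of 11 had a difference above 0, and the list's median was -0.44. The lowest p belonged to Traf6, a signalling ligase of the pathway, at -0.48 ± 0.12 (SE; limma adjusted p = 0.092).

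Cebpb, a transcription factor of luminal and alveolar development, was higher on all MaSC arrays than on any LP array. It read 3.25 and 3.15 in MaSC controls, 3.08 and 3.01 in MaSC with IFNα, 2.56 and 2.47 in LP controls, and 2.82 and 2.82 in LP with IFNα. The groups followed each other without overlap, from LP controls at 5.70-fold the reference to LP with IFNα at 7.07-fold, MaSC with IFNα at 8.24-fold and MaSC controls at 9.19-fold. Of all genes, 18% had no overlap between the fractions, and the share with all groups apart was not counted. MaSC exceeded LP 1.37-fold, by 0.45 ± 0.12 (SE; 95% interval 0.17 to 0.74), which missed the threshold (unadjusted p = 0.0078, limma adjusted p = 0.092). Without LP control replicate 1 the difference was 0.48 (limma adjusted p = 0.14). The direction over both treatments did not hold under rescaling. With all arrays scaled to the same SD the difference was -0.27, and with quantile normalization -0.14. In controls it ran from -0.63 to 0.74 over 18 alternatives. The difference with IFNα, which takes no LP control array, stayed above 0 in all 18, from 0.05 to 0.25.

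In controls the Cebpb difference was 0.69 ± 0.16 (SE; limma adjusted p = 0.17) and with IFNα 0.22 ± 0.16 (limma adjusted p = 0.56). Of 5 other C/EBP factors 0 passed, with a median of 0.07. Cebpa had the lowest p (0.72 ± 0.33, limma adjusted p = 0.26). Patterns most like Cebpb were those of Gk2, Trgv1 and Pla1a, with r of 0.98, 0.98 and 0.97.

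Hey1, a transcriptional repressor induced by Notch, scattered more within LP than within MaSC. It read 2.36 and 1.92 in MaSC controls, 1.97 and 1.93 in MaSC with IFNα, 2.84 and 1.65 in LP controls, and 3.29 and 1.69 in LP with IFNα. In each LP group replicate 1 was high and replicate 2 lay below every MaSC array. The difference between fractions was -0.32 ± 0.43 (SE; limma adjusted p = 0.70), with a 95% interval from -1.38 to 0.74, and -0.02 without LP control replicate 1. Mif, Zc4h2 and H2bc22 were most like it, each at r = 0.96.

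Of 17 other genes of the Notch pathway 4 rose in MaSC and none fell, with a median of 0.40. These were Jag1, a ligand (2.42 ± 0.16 SE, limma adjusted p = 0.0031), Heyl, a HEY-family repressor (3.55 ± 0.41, limma adjusted p = 0.016), Nrarp, a feedback inhibitor (4.85 ± 0.81, limma adjusted p = 0.039), and Mfng, a glycosyltransferase of NOTCH receptors (0.78 ± 0.14, limma adjusted p = 0.048). Without LP control replicate 1 the median was 0.14 and Mfng no longer passed, nor did it under centring, scaling or quantile normalization. Heyl lay between 3.01 and 5.05 on the MaSC arrays and between -0.31 and 1.79 on the LP arrays, so that the fractions did not overlap, as they did for Hey1.

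Stat5a, the signal transducer of the prolactin receptor, sat slightly below the reference in every group. It read -0.14 and -0.20 in MaSC controls, -0.34 and -0.28 in MaSC with IFNα, 0.01 and -0.31 in LP controls, and -0.21 and -0.53 in LP with IFNα. The difference between fractions was 0.02 ± 0.15 (SE; limma adjusted p = 0.95), with a 95% interval from -0.34 to 0.37. Of 12 other genes of the prolactin and STAT5 pathway 0 passed, with a median of 0.13 (0.21 without LP control replicate 1), and Nfib had the lowest p (-0.64 ± 0.17, limma adjusted p = 0.097). Sec24d, Asnsd1 and Glrp1 were most like Stat5a, with r of 0.97, 0.97 and 0.96. In the KIT pathway 1 of 11 genes passed, Dusp6, a phosphatase of ERK, which was 0.99 ± 0.12 higher in MaSC (limma adjusted p = 0.019), and the median was -0.29. With the arrays scaled to the same SD, and with quantile normalization, 0 of the 11 passed.

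**Figure D2:**
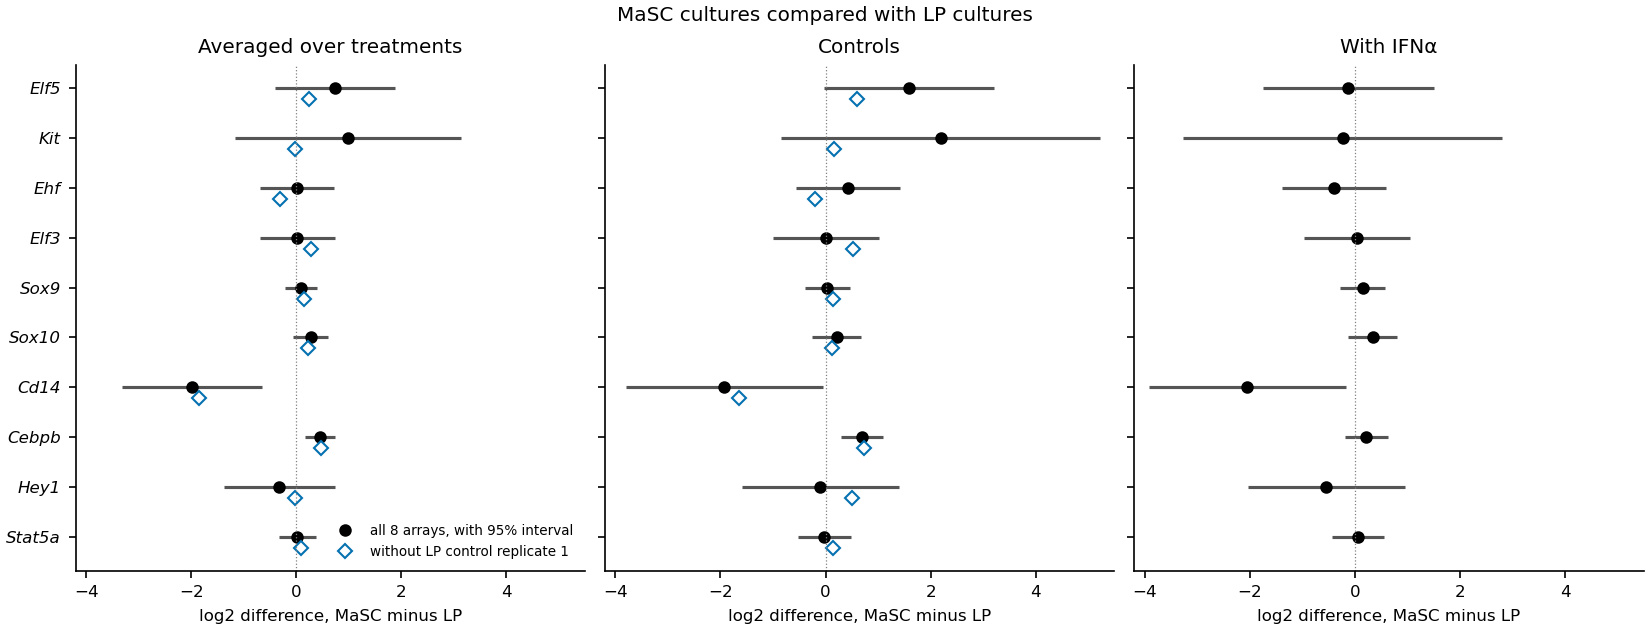
Log2 difference of MaSC minus LP (x axis) for each LP gene (y axis), averaged over treatments, in controls and with IFNα; filled points are all 8 arrays with their 95% interval, open diamonds the value without LP control replicate 1. Cd14 lies left of 0 in all 3 panels, while Kit moves from 0.98 to -0.03 when that array is left out.

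Further LP genes did not pass either, while basal genes did. Of 11 other LP genes, such as Aldh1a3, the aldehyde dehydrogenase of these progenitors, 0 passed, with a median difference of -0.11. Aldh1a3 lay between 6.83 and 7.50 on MaSC arrays and between 3.93 and 7.28 on LP arrays. Mfge8, a milk fat globule protein, had the lowest p and was lower in MaSC (-1.45 ± 0.48 SE, limma adjusted p = 0.15). Without LP control replicate 1, Gabrp was the 1 gene of this list to pass, lower in MaSC. Genes of the whole luminal lineage passed in 0 of 11 cases, with a median of -0.09 (-0.29 without LP control replicate 1) and the lowest p for Cd24a (-0.65 ± 0.15, limma adjusted p = 0.073). These medians depended on the scaling. With the arrays scaled to the same SD they were -0.65 for the other LP genes and -0.86 for the luminal lineage. With quantile normalization they were -0.60 and -0.74, and no gene of either list passed under these settings.

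Basal and myoepithelial genes separated the fractions on the same arrays. Of 12, 7 rose in MaSC and none fell, with a median of 2.25, and without LP control replicate 1 the count was 8. Krt5, a basal keratin, lay between 2.89 and 3.72 on MaSC arrays and between -0.78 and 0.13 on LP arrays, a difference of 3.78 ± 0.29 (SE; limma adjusted p = 0.0045). Snai2, a basal transcription factor, differed by 5.02 (limma adjusted p = 0.012) and Trp63 by 1.67 (limma adjusted p = 0.048). Krt14 also passed, between 3.36 and 3.74 on MaSC arrays and between 2.35 and 2.72 on LP arrays. Trp63 no longer passed under centring, scaling or quantile normalization. Krt14 did not pass under scaling or quantile normalization, nor Acta2 under scaling, while Cnn1 and Procr passed under both but not as deposited. Genes of keratinising epidermis were higher in MaSC too, with 6 of 10 past the test and a median of 2.96. Among mature luminal genes 0 of 6 passed.

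**Figure D3:**
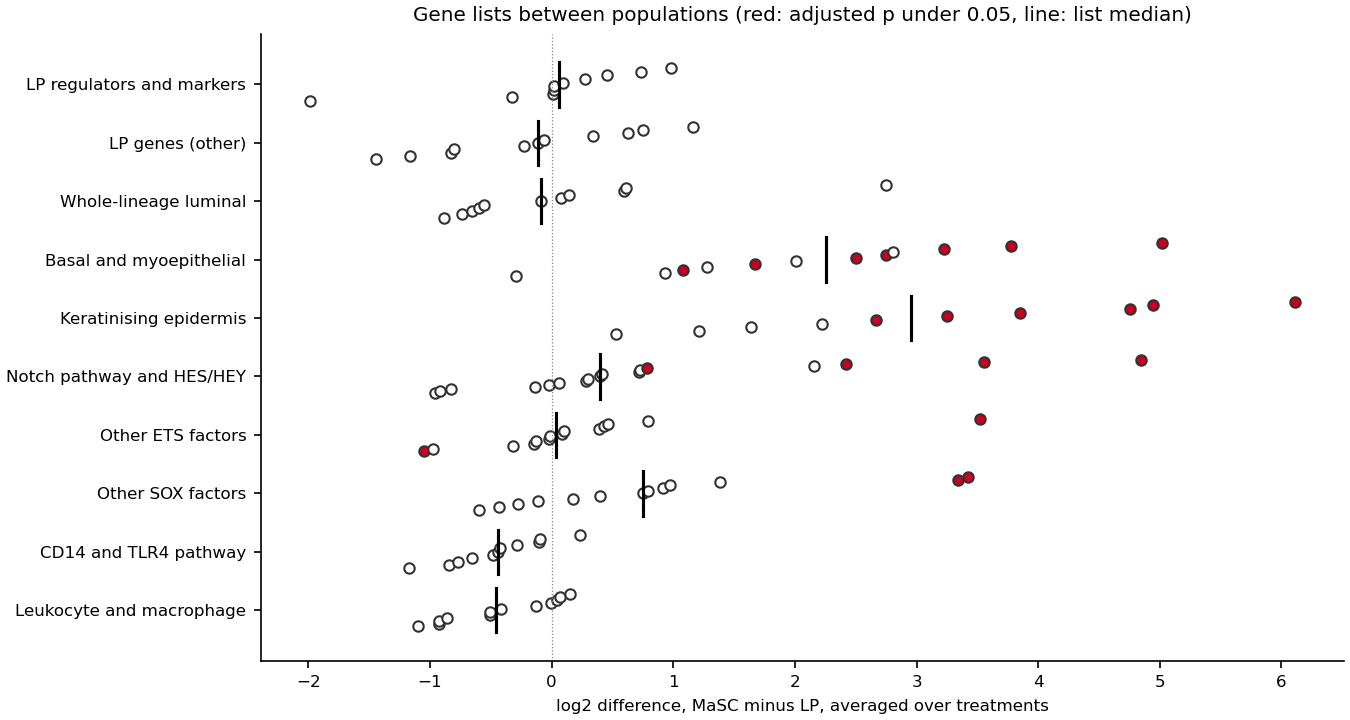
Log2 difference of MaSC minus LP averaged over treatments (x axis) for each gene of 10 lists (y axis); red points passed an adjusted p of 0.05, open points did not, and the black line is the list median. With the values as deposited, the LP lists centre near 0 with no red point, while 7 of 12 basal genes are red and their median is 2.25. Rescaling the arrays lowered the medians of the LP lists, as given in the text.

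IFNα moved no LP gene past the threshold in either fraction. In MaSC 0 of 10 passed, against 0.234% of all genes, and in LP 0 of 10, against 0.33%. The count at an unadjusted p under 0.05 was 0 in both, beside 989 of all 21794 genes in MaSC and 1618 in LP. The treatment itself was visible on these arrays: the median difference of 7 interferon-induced genes was 6.62 on the log2 scale in MaSC and 6.20 in LP, and 3 of 7 passed in each. Without LP control replicate 1 the LP median was 7.07, and 7 of 7 passed in each. Apart from these interferon-induced genes, among the genes of the lists described above, Cdh5, an endothelial cadherin, was the only one to pass, 3.59 ± 0.39 (SE) higher with IFNα in LP (limma adjusted p = 0.038). The shares of all genes rest on few arrays: without any single MaSC array the count in MaSC was 0, and in LP it ran from 0 without either treated LP array to 422 without LP control replicate 2. In MaSC the treated and control arrays did not overlap for Elf5, Kit, Cebpb and Stat5a, all lower with IFNα, as for 32% of all genes in either direction. Their differences were -0.50 ± 0.66, -0.81 ± 1.24, -0.16 ± 0.16 and -0.14 ± 0.21 (SE), each with a limma adjusted p above 0.99.

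In LP the groups did not overlap for Ehf and Cebpb, both higher with IFNα, as for 36.5% of all genes in either direction. Ehf differed by 0.83 ± 0.40 (SE; limma adjusted p = 0.74), or by 0.20 without LP control replicate 1. Elf5 differed by 1.20 ± 0.66 (limma adjusted p = 0.77) and Kit by 1.61 ± 1.24 (limma adjusted p = 0.81), and without that array these values were 0.21 and -0.41. Without LP control replicate 2 instead, the Kit difference was 3.64 and passed (limma adjusted p = 0.047). Differences in MaSC and LP were 0.10 and 0.08 for Elf3, 0.05 and -0.06 for Sox9, 0.07 and -0.06 for Sox10, and -0.14 and -0.22 for Stat5a. Cd14 differed by -0.47 ± 0.77 in MaSC and -0.35 ± 0.77 in LP, and Hey1 by -0.19 ± 0.61 and 0.25 ± 0.61.

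The IFNα responses of the fractions were compared directly. 0 of the 10 genes passed, and 0% of all genes did (limma, lowest adjusted p = 0.9997, with 931 genes at an unadjusted p under 0.05). Cebpb was lower with IFNα in MaSC and higher in LP with no overlap in either, a pattern held by 2.09% of all genes, and by 4.46% in opposite directions of either kind. Its difference in response, MaSC minus LP, was -0.47 ± 0.23 (SE; 95% interval -1.03 to 0.10), and -0.51 without LP control replicate 1. With the arrays scaled to the same SD it turned to 0.72, and with quantile normalization to 0.39. For Elf5 and Kit the difference in response was -1.71 ± 0.94 and -2.42 ± 1.75, or -0.72 and -0.39 without that array.

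**Figure D4:**
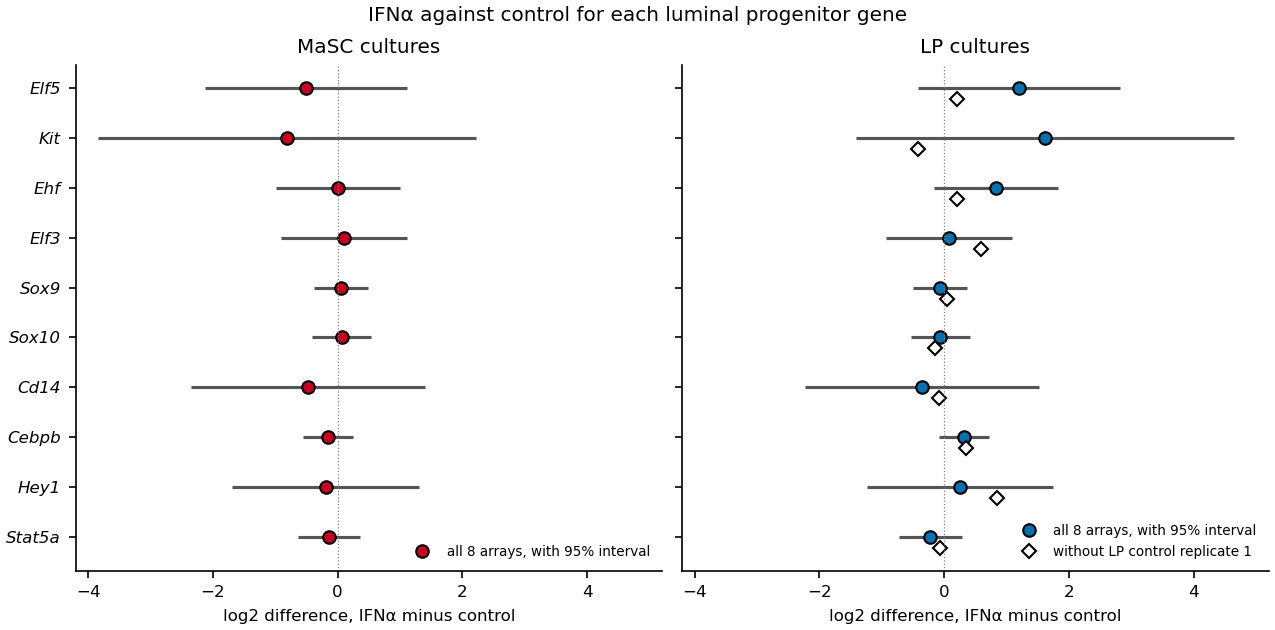
Log2 difference of IFNα minus control (x axis) for each LP gene (y axis) in MaSC and LP cultures; filled points are the fit of all 8 arrays with 95% intervals, open diamonds the value without LP control replicate 1. Every interval includes 0, and in LP the Kit value moves from 1.61 to -0.41 without that array.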

How the data were processed

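Total RNA was labelled with Cy5 and a universal mouse reference RNA with Cy3, per the labels' protocols, and the submitters' processing notes name Agilent Feature Extraction 11.0. The authors deposited log ratios, used here as log2 of sample over reference: base and direction are not stated, and were taken from the range of values and the dyes. Their normalization is not given in the sources used here, and probe intensities were not used, so signal over background is unknown and the number of arrays limits precision.

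Averaging 30398 named probes, complete on every array, gave 21794 genes. The model was limma's (version 3.58.1, R 4.3.3): 1 mean per group over all 8 arrays, empirical Bayes, two-sided, Benjamini-Hochberg within each comparison, and a threshold of 0.05. The fit was tested on simulated data, with 50 changed genes per size between MaSC and LP. It recovered 0 at a log2 difference of 0.5, 9 at 1, 34 at 2 and 43 at 4. The simulation gave 92 calls, 6 of them false, against 804 in the data, so its recovery is a rough guide. A gene that did not pass may still differ. The LP genes and lists were chosen with earlier results of these data known. Named beside the LP genes are the 3 genes of highest Pearson r with each (gene-model names skipped) and, per pathway list, up to 3 passing genes or the lowest p; further genes were chosen after their values were seen. Alternatives changed the probe rule, scaling, moderation, weights, replicate block and arrays used.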

Additional observations from a re-analysis of the deposited data

Results flagged for a closer look

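Cebpb moved in opposite directions with IFNα in the fractions: both treated MaSC arrays lay below both MaSC controls, and both treated LP arrays lay above both LP controls. The difference of the responses, MaSC minus LP, was -0.47 ± 0.23 on the log2 scale (SE, n = 2 per group), and the test of this difference did not pass (limma adjusted p = 0.9997). Rescaling the arrays turned the sign of this difference. Over 18 alternatives each, the difference in MaSC stayed below 0, and that in LP, which takes LP control replicate 1, changed sign in 2.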

How the results depend on the processing

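The count of LP genes past the threshold was 0 in all 6 comparisons and changed in 3 of them. Between fractions over both treatments it was 1 with a replicate block, through Cd14 (-1.99, limma adjusted p = 0.035), and 0 to 1 when single arrays were left out. In controls and for IFNα in LP it was also 0 to 1. Each of these 3 changes with an array left out was Kit without LP control replicate 2 (2.00, 4.22 and 3.64), which leaves LP control replicate 1 alone in its group. Replicate numbers are shared by the groups in the labels, which do not say whether equal numbers form pairs. Same-numbered arrays deviated together with correlations of -0.02 to 0.31, highest between the MaSC groups. MaSC control replicate 1 and MaSC IFNa replicate 1 also had the highest correlation of any arrays (r = 0.82). The main fit did not take the numbers as pairs, and these correlations do not settle whether they are. The block moved all genes called between fractions from 804 to 1107 and changed no other LP gene's call.

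No called value changed sign, and 104 of 1060 alternative values changed sign where neither value was called. With the arrays scaled to the same SD, 0 of the 10 LP genes lay above 0 between fractions, against 8 as deposited and 2 with quantile normalization. This scaling stretched the ratios of LP control replicate 1 most, as its SD of 0.63 was the lowest. The part of that array in these counts was not tested. In controls the median difference of all genes went from -0.01 to -0.13 with centring and -0.14 with scaling. Basal genes past the test between fractions numbered 6 to 8 of 12 and stayed higher in MaSC in 11 of 12 under each scaling, an alternative chosen after seeing the data. All genes called between fractions numbered 136 without LP IFNa replicate 2, 138 without LP IFNa replicate 1 and 569 without LP control replicate 1. In controls the number was 131, but 0 without either MaSC control array, 4 without LP control replicate 1, 368 without LP control replicate 2, 68 with trend and robust options, 80 with array weights and 218 with quantile normalization. With only the groups compared in the fit it was 0 for each comparison of 2 groups.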
